A study of Mus musculus with 2 samples.

Results

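The genes followed here are 10 growth and trophic factors that microglia and brain macrophages can express: Igf1, Bdnf, Hbegf, Tgfa, Pdgfa, Pdgfb, Vegfb, Osm, Gdf15 and Grn. They were chosen by gene symbol, and all 10 are among the 55450 genes listed in the count matrices. Brains were taken from adult males of the inbred C57BL/6J strain, and cells were sorted as CD11b-positive cells with low CD45, the usual gate for microglia. One group of 3 mice received saline and is called awake; the other group of 3 mice was given sodium pentobarbital, an anesthetic of the barbiturate class, at 100 mg/kg. Neither group carries a transgene or a genetic change in the labels. Each group gave 1 single-cell library made with the 10x Genomics kit, which tags each captured RNA molecule near its 3' end with a unique molecular identifier (UMI); pooling of the 3 mice is not given in the sources used here. With 1 library a group there is no replicate check: every value below describes these 2 libraries, the intervals cover counting error only, and the effect of the drug cannot be told apart from that of the library or its handling.

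Microglia release proteins that act on their neighbours. Some are made as membrane-bound precursors that a protease cuts loose, as are heparin-binding EGF-like growth factor (Hbegf) and transforming growth factor alpha (Tgfa), both ligands of the EGF receptor. Others are secreted dimers, such as the platelet-derived growth factor chains A and B (Pdgfa, Pdgfb) and vascular endothelial growth factor B (Vegfb). Insulin-like growth factor 1 (Igf1) and brain-derived neurotrophic factor (Bdnf) are named as microglial signals to neurons and myelin, oncostatin M (Osm) is a cytokine of the interleukin-6 family, growth differentiation factor 15 (Gdf15) is a stress-induced hormone of the TGF-beta superfamily, and progranulin (Grn) is a secreted and lysosomal protein.

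The awake library held 8600 barcodes and 53262885 UMIs, and the anesthesia library 9412 barcodes and 61139016 UMIs. After filtering, 8223 and 8944 cells remained, with 11 kept cells whose barcode occurs in both libraries. Of these, 7465 awake and 8432 anesthesia cells lay in clusters that carried microglial markers and are called microglia-like, with a median of 5952 and 5432 UMIs; all 10 microglial markers were seen in at least 25% of the cells of each such cluster. A further 49 and 39 cells were border-associated macrophage-like and 113 and 123 endothelial-like. These microglia-like cells were split by library: clusters 0 and 1 were mostly awake (4037 and 2691 awake against 127 and 95 anesthesia cells), and clusters 2, 3, 4 and 5 mostly anesthesia (2610, 2184, 1789 and 1472 against 33, 90, 193 and 92 awake cells). Neutrophil markers also differed within the microglia-like cells: the 10 neutrophil markers summed to 50.7 CPM (UMIs of a gene scaled to a total of 1000000 UMIs) with awake mice and 4.03 CPM with anesthesia, and all 4 that were measured were lower in the latter.

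In the microglia-like cells, 3 members were at least 1.5-fold higher in the anesthesia library, Hbegf, Osm and Gdf15, and 0 were at least 1.5-fold lower. A gene counted as measured with at least 200 UMIs over both libraries, which 8 of the 10 members reached; Igf1 and Bdnf did not. Of all 11395 measured genes, 13.3% were that much higher and 11.8% that much lower. The median log2 ratio of anesthesia over awake CPM was 0.35 over the 8 members and -0.02 over all measured genes. By the share of cells with at least 1 UMI, after each cell was thinned at random to 2000 UMIs (7278 awake and 8126 anesthesia cells were deep enough), the same 3 members were at least 1.5-fold higher, against 10.2% of the 9764 genes seen in at least 1% of the cells, and none was lower, against 12.3%.

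**Figure D1:**
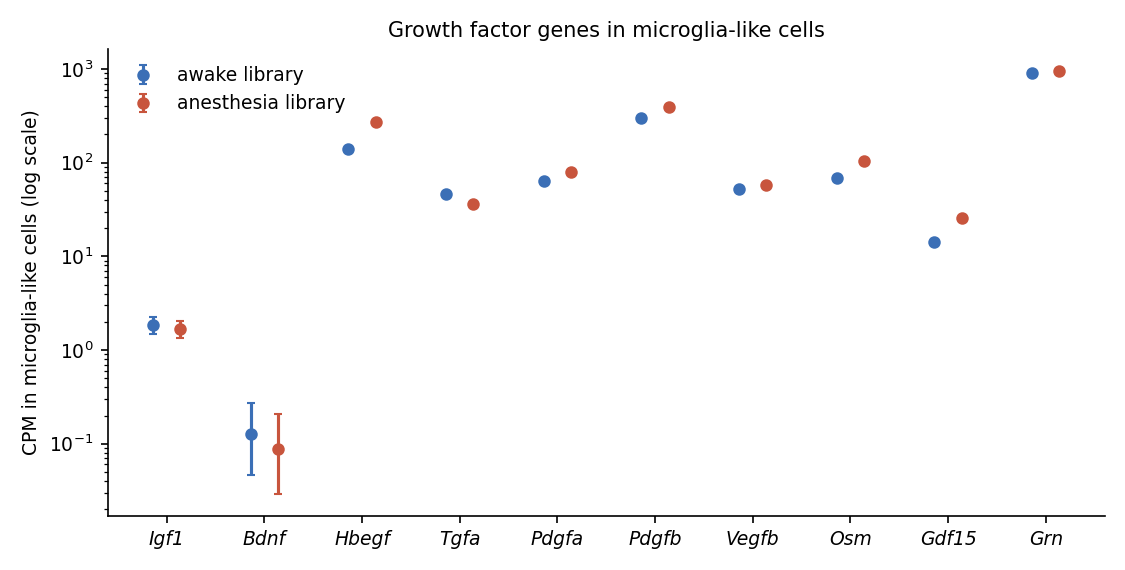
CPM of each gene, on a log axis, in the microglia-like cells of the awake library (blue) and the anesthesia library (red); each point is 1 library and the bars are exact 95% Poisson intervals, narrower than the point for most genes. Hbegf stands at 139 and 269 CPM, Osm at 68.6 and 103 CPM and Gdf15 at 14.2 and 25.9 CPM, while Tgfa is lower in the anesthesia library, at 46.4 and 36.4 CPM.

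Among the EGF receptor ligands, the 2 members went opposite ways. Hbegf lies on chromosome 18 at 36504927-36515805, minus strand, in GRCm38. Its level was 139 CPM in awake and 269 CPM in anesthesia cells, 1.94-fold higher in the latter; the log2 ratio was 0.96 (95% interval 0.92 to 0.999). A UMI of Hbegf was seen in 16.8% of the awake and 28.8% of the anesthesia cells at 2000 UMIs, and in 31.5% and 45.5% of the cells without thinning. Cells with Hbegf also held more of it: 38.2% of the positive awake cells and 50.8% of the positive anesthesia cells had 3 or more UMIs. Both the share of positive cells and the share of those with several UMIs were higher in the anesthesia library.

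Tgfa (chromosome 6, 86195223-86275719, plus strand) was the 1 measured member with a lower level in the anesthesia library. Awake cells held it at 46.4 CPM and anesthesia cells at 36.4 CPM, for a log2 ratio of -0.35 (-0.44 to -0.26). The share of cells with a UMI went the same way, at 8.62% and 6.99% thinned and 24.97% and 19.81% not thinned. The difference stays within the 1.5-fold line, and its interval lies below 0. Tgfa shares exonic bases with a gene on the other strand, as do Pdgfa, Bdnf and Grn; whether counting used the strand is not given in the sources used here.

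Both platelet-derived growth factor chains were somewhat higher in the anesthesia library, within 1.5-fold. Pdgfb (chromosome 15, 79995874-80014977, minus strand), the B chain that recruits pericytes to vessels, stood at 304 and 397 CPM, a log2 ratio of 0.39 (0.36 to 0.42). It was seen in 40.6% of the awake and 49.9% of the anesthesia cells at 2000 UMIs, and in 69.4% and 77.7% without thinning. Pdgfa (chromosome 5, 138976014-138997370, minus strand), the A chain that acts on oligodendrocyte precursors, stood at 63.3 and 79.1 CPM, a log2 ratio of 0.32 (0.25 to 0.39). Its thinned shares were 9.87% and 12.3%, and its unthinned shares 24.6% and 29.0%. Vegfb (chromosome 19, 6982473-6987651, minus strand), a ligand of the receptor Flt1, stood at 52.4 and 58.2 CPM (log2 ratio 0.15, 0.08 to 0.23), with thinned shares of 9.87% and 10.8%. None of these 3 genes passed the 1.5-fold line, though each interval lies above 0.

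Osm (chromosome 11, 4236420-4241026, plus strand), which signals through Il6st paired with Osmr, was counted at 68.6 CPM in awake and 103 CPM in anesthesia cells. Its log2 ratio of 0.59 (0.53 to 0.65) lies on the 1.5-fold line itself, so its call is marginal: it was 0.57 without cells over 10000 UMIs. The thinned shares were 11.3% and 17.1%, and the unthinned shares 26.5% and 37.8%. Neutrophils can express Osm, and the 22 neutrophil-like cells of the awake library held it at 70.9 CPM; the neutrophil markers within microglia-like cells were higher in the awake library, and their part in the Osm values was not tested.

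Gdf15 (chromosome 8, 70629393-70632456, minus strand) was at 14.2 CPM in awake and 25.9 CPM in anesthesia cells, 1.83-fold higher in the latter; the log2 ratio was 0.87 (0.74 to 1.002). It was seen in few cells, 1.70% and 3.58% at 2000 UMIs and 3.94% and 7.28% without thinning. Its UMIs were packed into a small part of those cells: the 1% of microglia-like cells with the most Gdf15 held 61.4% of its awake UMIs and 43.9% of its anesthesia UMIs. For Vegfb, the 1% of cells with the most Vegfb held 9.02% and 9.39%. Gdf15 was thus counted in a minority of cells in both libraries, and Vegfb was spread over more of them.

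The 250 bases before the start of Gdf15 and of Vegfb are shown because the UMIs of Gdf15 were the most packed among the 8 measured members and those of Vegfb were among the more spread. The sequences are from RefSeq on GRCm38.p6, minus strand, written 5′ to 3′ toward the start, with each CG dinucleotide in capitals. Gdf15 spans chr8:70632457-70632706 and Vegfb chr19:6987652-6987901.
Gdf15: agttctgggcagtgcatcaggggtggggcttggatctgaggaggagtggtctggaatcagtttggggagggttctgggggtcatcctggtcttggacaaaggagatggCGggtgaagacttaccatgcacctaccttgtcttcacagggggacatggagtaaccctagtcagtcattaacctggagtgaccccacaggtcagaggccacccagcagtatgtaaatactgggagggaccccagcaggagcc
Vegfb: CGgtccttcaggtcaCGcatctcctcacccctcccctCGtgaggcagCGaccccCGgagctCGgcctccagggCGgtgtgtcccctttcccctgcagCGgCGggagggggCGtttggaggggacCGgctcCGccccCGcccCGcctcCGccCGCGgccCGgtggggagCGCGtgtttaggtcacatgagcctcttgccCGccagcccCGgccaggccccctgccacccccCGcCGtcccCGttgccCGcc
The Gdf15 stretch holds 1 CG, a number that 18.8% of the 32851 promoter windows of that length did not exceed, and the Vegfb stretch holds 26, which 9.59% of them reached; the median was 6. Gdf15 has a second RefSeq window, inside the gene, with 6 CG, so the low number holds for the window at the gene's start alone. A window was found for 7 of the 10 members, 15 windows in all. Hbegf, Pdgfb and Osm had no window, so the motif counts that follow do not cover them. On either strand, TGANTCA, a loose form of the AP-1 motif with any base at N, was found in the window of Igf1 and in 1 of the 7 windows of Bdnf. Both hits read TGAATCA, so no member window held the form with C or G at N. The loose form was found in 6.75% of all windows, and the share with C or G at N was not computed. The cAMP response motif TGACGTCA was found in none of the 15 member windows and in 1.55% of all. These counts describe letters in a window and say nothing of binding.

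Grn (chromosome 11, 102430315-102437048, plus strand) differed little. Its level was 914 CPM with awake mice and 957 CPM with anesthesia, and the log2 ratio 0.07 (0.05 to 0.08). Its thinned share was 80.7% and 82.5%, while without thinning the order turned, 97.5% and 96.8%. Psap, prosaposin, the lysosomal partner of progranulin, stood at 1616 and 1596 CPM (log2 ratio -0.02). Both ratios lie near the median of all genes.

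Igf1 and Bdnf were at the edge of detection in microglia-like cells. Igf1 (chromosome 10, 87858265-87937042, plus strand) gave 88 awake and 94 anesthesia UMIs, or 1.84 and 1.66 CPM, a log2 ratio of -0.15 (-0.58 to 0.29). A UMI was seen in 50 awake cells (0.670%) and 76 anesthesia cells (0.901%), and at 2000 UMIs in 0.206% and 0.283%. The interval of the ratio includes 0, so no difference was detectable at this depth. A single awake cell held 20 of the 88 UMIs. Bdnf (chromosome 2, 109674700-109727007, plus strand) gave 6 awake and 5 anesthesia UMIs, too few to compare. It was not seen in any border-associated macrophage-like or endothelial-like cell.

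**Figure D2:**
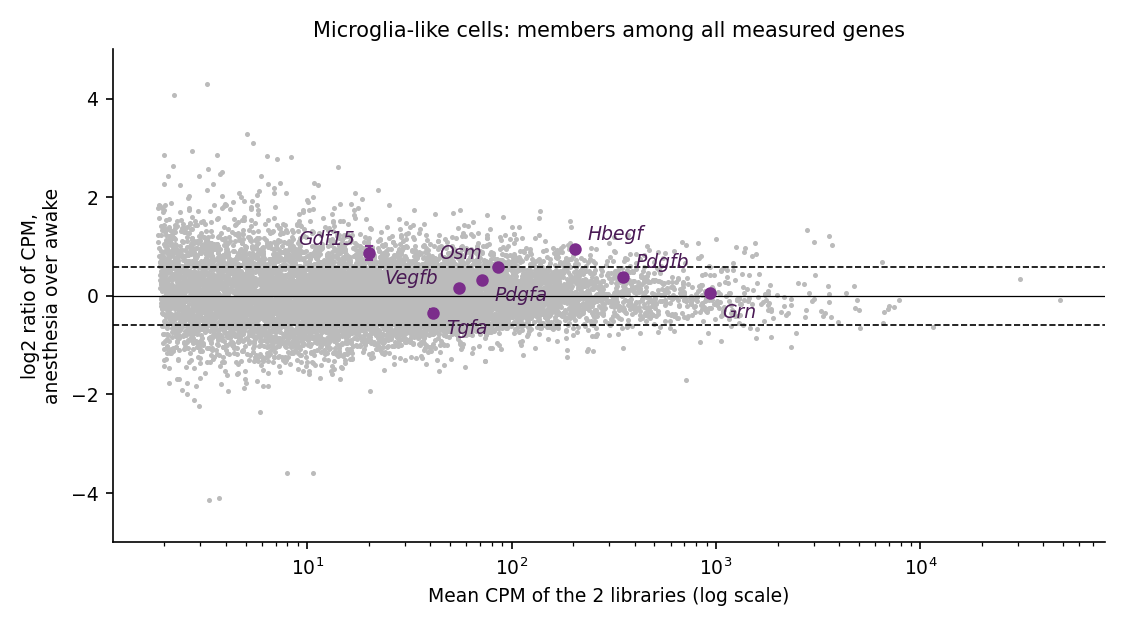
log2 ratio of CPM, anesthesia over awake, against the mean CPM of the 2 libraries on a log axis, for all 11395 measured genes (grey) and the 8 measured members (purple, with 95% counting intervals); dashed lines mark 1.5-fold. Hbegf (0.96), Gdf15 (0.87) and Osm (0.59) lie on or above the upper line, and Tgfa (-0.35) is the member below 0.

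Taken cell by cell, more cells of the anesthesia library held at least 1 or at least 2 members. Single members such as Hbegf and Osm were also seen in more cells there. The joint share expected from the single shares was not computed, so no added co-occurrence is read. Leaving out Grn, at least 1 member was seen in 67.6% of the awake and 78.3% of the anesthesia microglia-like cells at 2000 UMIs, and at least 2 members in 25.4% and 38.2%. In the awake library, Gdf15 was seen in 3.11% of the cells with Hbegf and 1.42% of those without. In the anesthesia library the same shares were 3.802% and 3.492%. For Osm the shares were 10.96% with and 11.31% without Hbegf in the awake library, and 17.8% and 16.8% in the anesthesia library. The Osm share was thus close in cells with and without Hbegf in each library.

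The members also differed between clusters of microglia-like cells of the same library. They were kept out of the genes used for clustering. In the awake library, Hbegf stood at 96.7 CPM in cluster 0, led by Klf2, and 185 CPM in cluster 1, led by Sbno2 and Socs3. In the anesthesia library it stood at 111 CPM in cluster 4 and 372 CPM in cluster 3, whose leading genes include Cxcl2, Cxcl10, Il1b and Gdf15 itself. The anesthesia cells of cluster 4 were thus close to awake cluster 0, while those of clusters 2 and 5, at 257 and 322 CPM, stood above both awake clusters.

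Gdf15 was uneven across clusters. Cluster 3 held 25.9% of the anesthesia microglia-like cells and 54.3% of their Gdf15 UMIs, at 61.5 CPM. Cluster 4 stood at 5.97 CPM and cluster 0 of the awake library at 6.76 CPM. In the awake library the highest level, 56.1 CPM, was in cluster 7, a small cluster of 221 awake and 50 anesthesia cells led by Clec7a, Lgals3, Lpl and Spp1. Without cluster 3, the log2 ratio of Gdf15 over the other microglia-like cells was 0.13 and that of Osm 0.52, so both fell under the 1.5-fold line, while Hbegf stood at 0.79.

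In the awake library, cluster 7 also held the highest Pdgfa and the largest part of the Igf1 UMIs. Pdgfa was there at 224 CPM (awake) and 101 CPM (anesthesia), against 50.1 CPM in awake cluster 0 and 63.7 CPM in awake cluster 1; in the anesthesia library its level was close in cluster 3, at 109 CPM. Igf1 stood at 25.9 and 26.0 CPM in cluster 7. That cluster held 2.96% of the awake microglia-like cells and 53.4% of their Igf1 UMIs, and 0.593% of the anesthesia cells and 9.57% of their Igf1 UMIs. Most anesthesia Igf1 UMIs (59.6%) lay in cluster 2, at only 2.16 CPM. Cluster 2 held 31.0% of the anesthesia microglia-like cells and 45.9% of their UMIs of all genes. Within cluster 7 the log2 ratio of Igf1 was 0.01 (-1.21 to 1.05), and fewer anesthesia cells lay in that cluster. The awake cell with 20 Igf1 UMIs belongs to it. Without that cell, a choice made after seeing the data, awake cluster 7 stood at 14.9 CPM with 39.7% of the awake Igf1 UMIs, and the log2 ratio within the cluster was 0.80 (-0.47 to 1.93).

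Where a cluster held at least 50 cells of each library, the comparison could be made within it, in clusters 0, 1, 3, 4, 5, 7 and 9. Hbegf was higher in the anesthesia cells of all 7, with log2 ratios from 0.12 in cluster 4 to 0.95 in cluster 9, the interferon-related cluster led by Ifit3. Their mean was 0.49, under the 1.5-fold line, and the Hbegf intervals in clusters 0 and 4 include 0. Tgfa was lower in 6 of the 7, with ratios from -0.38 to -0.91 and 0.11 in cluster 1. Its mean of -0.59 lies on the 1.5-fold line itself, and its intervals in clusters 1, 3, 7 and 9 include 0. For Gdf15 the ratios ran from -1.36 in cluster 1 to 4.61 in cluster 9, with a mean of 0.99 that rests on clusters 5 and 9, where awake cells gave 1 UMI each. Over the 5 clusters with at least 3 Gdf15 UMIs in each library, a choice made after seeing the data, the mean was -0.15. The mean was 0.17 for Osm and 0.09 for Pdgfb, and for Pdgfa it turned to -0.17. These ratios rest on as few as 50 cells of 1 library, the anesthesia cells of cluster 7.

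**Figure D3:**
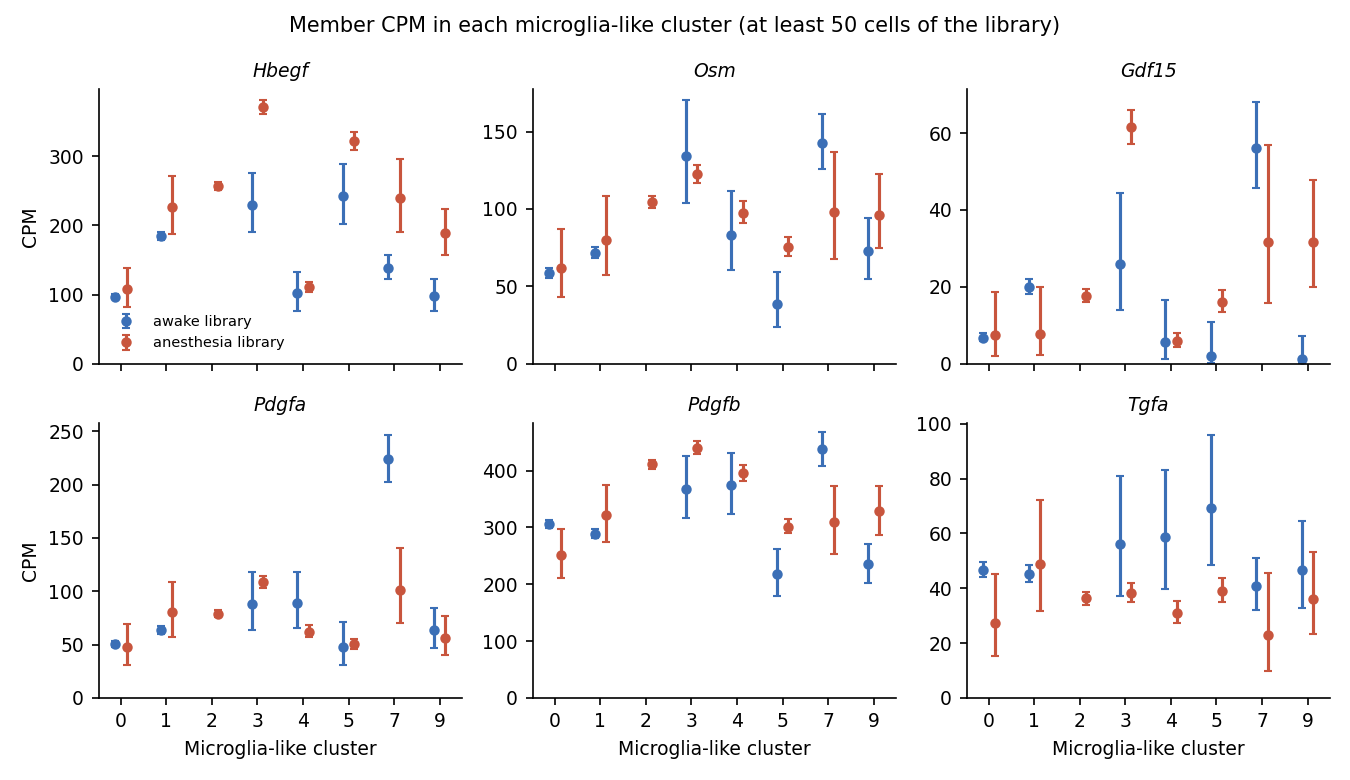
CPM of 6 members in each microglia-like cluster, for the awake (blue) and the anesthesia library (red), with exact 95% Poisson intervals; a point is drawn where the library has at least 50 cells in the cluster, and every axis starts at 0. Hbegf and Gdf15 peak in anesthesia cluster 3 at 372 and 61.5 CPM, and Pdgfa in awake cluster 7 at 224 CPM.

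Genes whose level ran most like a member over 28 sums of cluster and library were found by Pearson's r of log2(CPM + 10), given here as a description since the sums share libraries and depth. Hbegf was most like Swap70 (0.91), Abhd5 and Sptan1, Pdgfb like Celf1 (0.93) and Ino80d, and Osm like C3ar1 (0.95), Arl4c and Casp4. Grn was most like Efhd2 (0.93), C1qc and Cd300c2. The closest were looser for Gdf15 (Gramd1b, 0.71, then Ptger4 and Mir155hg), Vegfb (Pet100, 0.73, then Rpl36al and Sdhd), Tgfa (Hjurp, 0.77, then Iqsec2 and Gsdmd) and Pdgfa (Gnl2, 0.83, then Mroh1 and Cdc5l).

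In the border-associated macrophage-like cells, Igf1 was a regular transcript. Awake cells of this class held 81.2 CPM and anesthesia cells 41.4 CPM, against under 2 CPM in microglia-like cells. A UMI was seen in 42.9% of the 49 awake and 46.2% of the 39 anesthesia cells, and at 2000 UMIs in 17.0% (95% interval 7.65 to 30.8%) and 10.3% (2.87 to 24.2%). These few cells gave 32 of the 136 Igf1 UMIs of all kept awake cells and 28 of the 126 of the anesthesia cells. Endothelial-like cells, at a median of 5507 and 4535 UMIs, gave no Igf1 UMI in 113 and 123 cells, which allows a share of cells with a UMI of up to 2.65% and 2.44% and sets no limit on cells that express the gene.

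The log2 ratio of Igf1 in the macrophage-like cells was -0.97 (-1.76 to -0.19), from 32 and 28 UMIs. The 10 macrophage markers summed to 5533 and 1912 CPM in the same cells, the 10 neutrophil markers to 1800 and 1.48 CPM and the 10 microglial markers to 14404 and 18274 CPM; their part in the Igf1 difference was not tested. A further 3 members were at least 1.5-fold higher in the anesthesia library there. Pdgfb stood at 142 and 347 CPM (1.29, 0.86 to 1.74), Hbegf at 119 and 234 CPM (0.97, 0.49 to 1.47) and Pdgfa at 50.8 and 97.6 CPM (0.94, 0.20 to 1.74). Of the 3493 genes with at least 50 UMIs in these cells, 21.2% were that much higher and 12.2% that much lower; 7 members reached that minimum. Osm, at 122 and 112 CPM, Vegfb, at 68.5 and 59.1 CPM, and Grn, at 906 and 1056 CPM, stayed within 1.5-fold. At 2000 UMIs the shares of cells with a UMI were 14.9% and 7.69% for Osm and 6.38% and 17.9% for Vegfb, the latter opposite to its CPM, so no order is read for Vegfb. Gdf15 and Tgfa gave at most 21 UMIs a library.

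These macrophage-like cells also carried microglial RNA, and more so in the anesthesia library, where they were deeper (median 13237 UMIs against 7059). P2ry12, a microglial receptor, stood at 46.5% of its microglia-like level in the awake and 87.3% in the anesthesia macrophage-like cells. Other microglial genes differed less, Tmem119 at 53.8% and 85.5% and Cx3cr1 at 70.3% and 104.6%. Pdgfb stood at 46.8% and 87.6% of its microglia-like level, and Hbegf at 86.1% and 86.8%. The part of microglial RNA in the Pdgfb and Igf1 differences was not tested. Over the 91 and 112 cells with at least 3 of the 10 macrophage markers, the log2 ratio was -1.54 for Igf1, 0.61 for Pdgfb and 1.18 for Hbegf. Igf1 there gave 35 and 33 UMIs, against 32 and 28 in the macrophage-like clusters. Its level was lower than in those clusters in both libraries, at 44.4 and 15.2 CPM, so this ratio adds few Igf1 UMIs.

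In endothelial-like cells, Hbegf and Pdgfb were lower in the anesthesia library, within 1.5-fold by CPM. Hbegf was at 551 CPM in awake and 477 CPM in anesthesia endothelial-like cells (log2 ratio -0.21, -0.41 to -0.00), above the microglia-like level in both. Pdgfb, which endothelial cells are known to secrete to pericytes, stood at 334 and 268 CPM (-0.32, -0.59 to -0.05), above the awake and below the anesthesia microglia-like level. At 2000 UMIs the share of cells with a UMI was 53.8% and 42.0% for Hbegf, and 52.8% and 32.1% for Pdgfb, more than 1.5-fold lower. For Hbegf the order of levels was endothelial-like, microglia-like, then macrophage-like in both libraries, with the last pair overlapping in their counting intervals.

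Osm and Grn were the members whose log2 ratio had a counting interval above 0 in the same endothelial-like cells. The ratios were 2.56 (1.32 to 4.08) for Osm and 0.93 (0.66 to 1.21) for Grn. Osm stood at 8.57 and 50.4 CPM, which is 12.5% and 48.9% of its microglia-like level, and Grn at 231 and 442 CPM, 25.3% and 46.1%. The microglial genes P2ry12, Tmem119 and Cx3cr1 stood at 15.9 to 19.3% of their microglia-like level in the awake and 38.7 to 46.2% in the anesthesia endothelial-like cells. The part of microglial RNA in the Osm and Grn values was not tested. At 2000 UMIs, 0.943% and 4.46% of the endothelial-like cells had an Osm UMI, against 11.3% and 17.1% of the microglia-like cells. The share of endothelial-like cells with a Gdf15 UMI was 0% and 0.893%, against 1.70% and 3.58%.

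**Figure D4:**
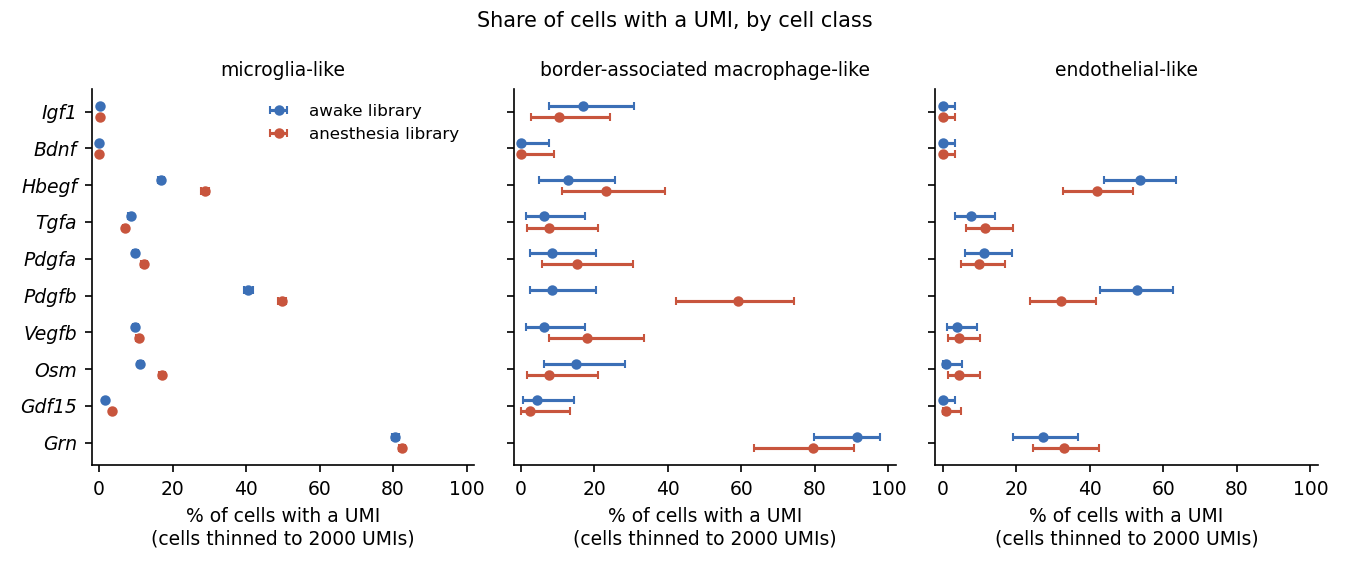
Share of cells with at least 1 UMI of each member after thinning to 2000 UMIs, in microglia-like, border-associated macrophage-like and endothelial-like cells of the awake (blue) and the anesthesia library (red), with exact 95% binomial intervals. Igf1 is seen in 17.0% and 10.3% of the macrophage-like cells and in under 1% of the microglia-like cells, and Pdgfb in 8.51% and 59.0% of the macrophage-like cells.

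Receptors of these factors in microglia-like cells were taken from a list of 18 genes, of which 8 were measured. Of these, 3 were at least 1.5-fold higher in the anesthesia library and 1 was lower, beside 13.3% higher and 11.8% lower of all measured genes, and the median log2 ratio was 0.53 beside -0.02. Lifr, which pairs with Il6st, stood at 41.8 and 64.5 CPM (0.63, 0.55 to 0.71). Insr, the insulin receptor, stood at 21.6 and 32.5 CPM (0.59, 0.48 to 0.70), and Sort1, which takes up progranulin, at 49.2 and 73.9 CPM (0.59, 0.51 to 0.66). Insr and Sort1 thus lie on the 1.5-fold line, and Lifr just above it. Nrp1, a co-receptor of the VEGF family, stood at 104 and 66.1 CPM (-0.65, -0.72 to -0.59).

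Partners of the members differed in whether microglia-like cells held them at all. Il6st stood at 84.4 and 121 CPM (0.52), and Igf1r at 48.8 and 65.8 CPM (0.43). Osmr gave 7 UMIs in each library, and Egfr, the receptor of Hbegf and Tgfa, 1 and 4 UMIs. Pdgfra and Gfral, the receptors of PDGF-A and of Gdf15, gave none, Pdgfrb 13 and 7, and Ntrk2, the Bdnf receptor, 48 and 42. The ligands were therefore counted here in cells with next to no UMIs of the receptors of Hbegf, Tgfa, the PDGF chains or Gdf15.

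The list of 18 proteases and carriers had 10 measured genes, with 0 higher and 2 lower by 1.5-fold, beside 13.3% and 11.8% of all measured genes, and a median log2 ratio of 0.03 beside -0.02. Igfbp7 stood at 2.63 and 1.52 CPM (-0.79, -1.21 to -0.39), and Igfbp4, which holds Igf1 in the extracellular space, at 33.1 and 21.8 CPM (-0.60, -0.71 to -0.49). Adam17, the protease that sheds Hbegf and Tgfa, stood at 86.2 and 103 CPM (0.26), and its trafficking partner Rhbdf2 at 14.9 and 21.1 CPM (0.50).

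Among 40 other growth factors, 13 were measured, 2 were at least 1.5-fold higher and 1 was lower, beside 13.3% and 11.8% of all measured genes, with a median log2 ratio of -0.18 beside -0.02. Vegfa, the main angiogenic VEGF, stood at 4.27 and 17.1 CPM (2.002, 1.78 to 2.23), unlike its relative Vegfb at 0.15. Csf1, a survival factor of microglia, stood at 26.4 and 62.2 CPM (1.24, 1.14 to 1.33). Spp1, osteopontin, stood at 4.91 and 2.07 CPM (-1.25, -1.58 to -0.92), with thinned shares of only 0.398% and 0.357%. Spp1 and Csf1 are both leading genes of cluster 7, which held fewer anesthesia cells. Csf1 is also a leading gene of cluster 2, which was mostly anesthesia. The part of these clusters in either ratio was not tested.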

How the data were processed

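Single-cell RNA of sorted microglia was measured in 2 libraries, awake and anesthesia. The deposited matrices hold raw whole-number UMI counts. Tools named in the submitters' processing notes are bcl2fastq and Cell Ranger 3.1.0, with GRCm38 as the build; the file headers name Cell Ranger 4.0.0, and the authors' cell calling is not given in the sources used here. Barcodes under 500 genes, under 1000 UMIs or over 10% mitochondrial UMIs were left out, and the rest were clustered with scanpy 1.11.5 and leidenalg 0.10.2 (2000 variable genes without the members, 30 components, 15 neighbours, Leiden resolution 0.6). Clusters were named from 10 markers a class; the naming thresholds were set after seeing the data. Unnamed clusters were clustered again at a resolution of 0.5. Scrublet called 0 and 1 cells as doublets, so the caller failed here and doublets were left in. The 14 barcodes shared by the libraries were kept.

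UMIs were summed per cell class and library and divided by the total (CPM). Ratios have exact conditional binomial intervals, CPM exact Poisson intervals and shares exact Clopper-Pearson intervals, all at 95%. Apart from these, where the text gives a limit for a count of 0, up to 3 counts were allowed. UMIs of 1 library are not replicates, so no p-value was computed. The ratio and its interval were run on simulated Poisson counts, the model that the interval assumes. That run leaves out the packing of UMIs into few cells, so it cannot tell how well the intervals hold for these data. The total depth is 53262885 and 61139016 UMIs. Named genes are the members, from each other list the 3 measured genes of the largest absolute log2 ratio and the best known partners, and the 3 genes most like each measured member; 1 gene of the last kind and 1 microglial marker are not reported here. Members and lists were chosen with earlier results of these data known. Coordinates are from GENCODE M21 on GRCm38; all 55450 gene identifiers matched it.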

Additional observations from a re-analysis of the deposited data

Results flagged for a closer look

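Hbegf and Pdgfb differed in direction between cell classes of the same libraries. In endothelial-like cells the log2 ratio of anesthesia over awake was -0.21 for Hbegf (-0.41 to -0.00) and -0.32 for Pdgfb (-0.59 to -0.05), while in microglia-like cells it was 0.96 and 0.39. These intervals cover counting error only, each class comes from the same 2 libraries, and the difference between classes was not tested. The endothelial-like cells also carried microglial RNA, with P2ry12 at 15.9% (awake) and 38.7% (anesthesia) of its microglia-like level; its part in these values was not tested.

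Within some microglia-like clusters a member went against the direction over all microglia-like cells, with an interval clear of 0. For Pdgfa the log2 ratio was -0.52 in cluster 4 and -1.15 in cluster 7, against 0.32 over all. For Pdgfb it was -0.28 in cluster 0 and -0.50 in cluster 7, against 0.39. For Osm it was -0.54 in cluster 7, against 0.59. Cluster 7 holds 221 awake and 50 anesthesia cells and cluster 0 holds 127 anesthesia cells, and these differences were not tested.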

How the results depend on the processing

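No paired analysis was possible because each group has 1 library. The count of 3 members at least 1.5-fold higher became 1 as a mean of within-cluster ratios (Gdf15), 0 over the clusters with at least 3 UMIs of the member in each library (chosen after seeing the data), 1 without cluster 3 (Hbegf; chosen after seeing the data) and 0 at a fold of 2; under the other 11 settings it was 2 to 4, and Osm, at the line itself, was the member lost without cells over 10000 UMIs, without the highest Scrublet scores and with the mean of per-cell CPM. With the GC and length trend removed, Pdgfb (0.59) joined. The count of lower members, 0, became 1 (Tgfa, at -0.59, on the line itself) within clusters, either way. At a fold of 2, the receptors had 0 higher and 0 lower and the proteases and carriers 0 lower. Pdgfa reversed within clusters (-0.17 either way) and Gdf15 over the clusters with at least 3 UMIs (-0.15). The Grn share difference, anesthesia minus awake, reversed to -0.724 points without thinning and -0.323 points at 1000 UMIs. Of 136 member ratios in microglia-like cells under alternatives, 106 stayed inside the counting interval of the reported value, 27 moved outside it and 3 reversed, which is counted only where that interval leaves out 0. Igf1, whose interval includes 0, kept its sign under 9 of 13 alternatives and turned to 0.49 and 0.01 within clusters, 0.09 without cluster 3 and 0.16 without the cell with the most UMIs; Bdnf kept it under 10 of 11, with 0.38 without cells over 10000 UMIs. Hbegf, Osm, Pdgfb, Vegfb and Grn stayed above 0 and Tgfa below 0 under all 14. The cause of each move was not tested. Depth limits Igf1 and Bdnf, with 182 and 11 UMIs over both libraries.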

Other observations

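Cells left without a name, 482 awake and 262 anesthesia, had Hbegf and Gdf15 at least 1.5-fold higher in the anesthesia library, with log2 ratios of 1.55 (1.32 to 1.78) and 1.46 (0.80 to 2.13). Igf1 was lower there, at -2.32 (-5.49 to -0.23), from only 16 and 2 UMIs. Within 1.5-fold were Osm at 0.51 (0.19 to 0.84), Pdgfb at 0.40 (0.26 to 0.55), Pdgfa at 0.40 (0.08 to 0.72), Grn at 0.14 (0.05 to 0.23) and Tgfa at 0.06 (-0.37 to 0.48). The make-up of these cells differed by library: 1 group led by Cpe and Slc1a2 held 367 awake and 11 anesthesia cells, and another led by Vtn and Rgs5 held 18 and 191; its part in these ratios was not tested. In choroid plexus or ependymal-like cells, 41 awake and 83 anesthesia cells, Hbegf stood at 18.7 and 92.9 CPM and Pdgfb at 115 and 230 CPM; P2ry12 stood there at 31.2% and 44.9% of its microglia-like level, and its part in these values was not tested.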
